A study of Mus musculus with 2 samples.

Results

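Potassium channel genes of the embryonic mouse heart were taken as all protein-coding genes whose GENCODE M21 symbol starts with Kcn, matched by Ensembl identifier without version. This gave 94 genes among 21474 protein-coding genes and 43346 Ensembl genes of the files. By symbol they comprised 15 inward rectifiers (Kcnj), 40 voltage-gated pore subunits (Kcna to Kcnd, Kcnf to Kcnh, Kcnq, Kcns and Kcnv), 14 two-pore subunits (Kcnk), 8 subunits opened by calcium, sodium or pH (Kcnma, Kcnn, Kcnt and Kcnu), and 17 accessory genes (Kcnab, Kcne, Kcnip, Kcnmb and Kcnrg). The RNA came from hearts of healthy B6NCrl mouse embryos aged 15.5 days, both sexes mixed, and the labels name no agent and no mutant allele. The series holds 1 group of 2 libraries. Replicate 1 pooled hearts from 78 embryos and replicate 2 pooled hearts from 62 embryos. Each library was made from 10 ng of RNA longer than 200 nt with spike-in RNA added.

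Potassium channels let potassium leave the cell and thereby set the resting potential of heart muscle and end its action potential. Inward rectifiers hold the resting potential and respond to acetylcholine or to the energy state of the cell, voltage-gated channels repolarize the membrane, two-pore channels carry a leak current, and calcium-activated channels couple potassium efflux to intracellular calcium. Accessory subunits form no pore of their own and change the gating, assembly or trafficking of the pore subunits. Most mature channels are assemblies of several pore subunits, so that the set of transcribed members limits which channels can form.

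The pore is built around a selectivity filter, a short stretch that every pore subunit carries and that passes potassium in preference to sodium. Its codons are shown here because the pore-forming members carry it, while the accessory ones form no pore. The longest complete coding sequence of each gene in GENCODE M21 (GRCm38), which need not be the transcript quantified in the files, was read in frame for 5 codons in a row. The first codon was ACN, TCN, AGC or AGT, the second any codon, the third GGN, the fourth TAC, TAT, TTC or TTT, and the fifth GGN, a pattern written to take in the known variants of the filter. All 77 of 77 pore-forming members had such a stretch, and 0 of 17 accessory members did. Of 21502 protein-coding genes with a complete coding sequence, 2.66% had one. Because the pattern was written from known filters, these counts are a description and no test of the grouping. In 11 of the 14 two-pore genes the stretch occurred more than once, as it does in Kcnk3. The others, Kcnk1, Kcnk6 and Kcnk7, had 1 match, which does not show that they lack a second filter. The 5 matched codons are in capitals, with 15 coding bases on each side, 5′ to 3′ on the coding strand.
Kcnj5 (acetylcholine-activated inward rectifier): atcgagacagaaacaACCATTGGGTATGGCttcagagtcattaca
Kcnj8 (ATP-sensitive inward rectifier): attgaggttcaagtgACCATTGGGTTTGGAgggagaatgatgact
Kcnq1 (slow delayed rectifier): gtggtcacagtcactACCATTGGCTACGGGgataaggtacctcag
Kcnh2 (rapid delayed rectifier): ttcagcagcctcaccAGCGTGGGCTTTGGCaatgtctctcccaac
Kcna5 (ultrarapid delayed rectifier): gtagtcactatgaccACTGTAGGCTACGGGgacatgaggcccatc
Kcnk3 (acid-sensitive leak channel), first stretch: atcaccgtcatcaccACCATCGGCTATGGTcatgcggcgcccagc
Kcnk3, second stretch: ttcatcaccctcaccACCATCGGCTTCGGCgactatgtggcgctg
Kcnn4 (intermediate-conductance calcium-activated channel): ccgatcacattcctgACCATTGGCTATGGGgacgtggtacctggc

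Of the 94 genes, 33 reached 1 TPM or more in both libraries and are called detected here. That was 35.1% of the Kcn genes, against 58.2% of all protein-coding genes. TPM divides reads by transcript length and scales each library to the same total, so levels can be set side by side between genes. Only 8 Kcn genes reached 10 TPM in both libraries, while 24 had a mean below 0.1 TPM. The median TPM over all 94 genes was 0.365 in replicate 1 and 0.540 in replicate 2, against 3.03 and 4.11 for all protein-coding genes. Among detected genes the medians were 4.54 and 4.75 TPM for Kcn genes, against 14.5 and 17.1 TPM for protein-coding genes. With hearts pooled whole, fewer cells of a type and less RNA per cell cannot be told apart for any level given here.

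**Figure D1:**
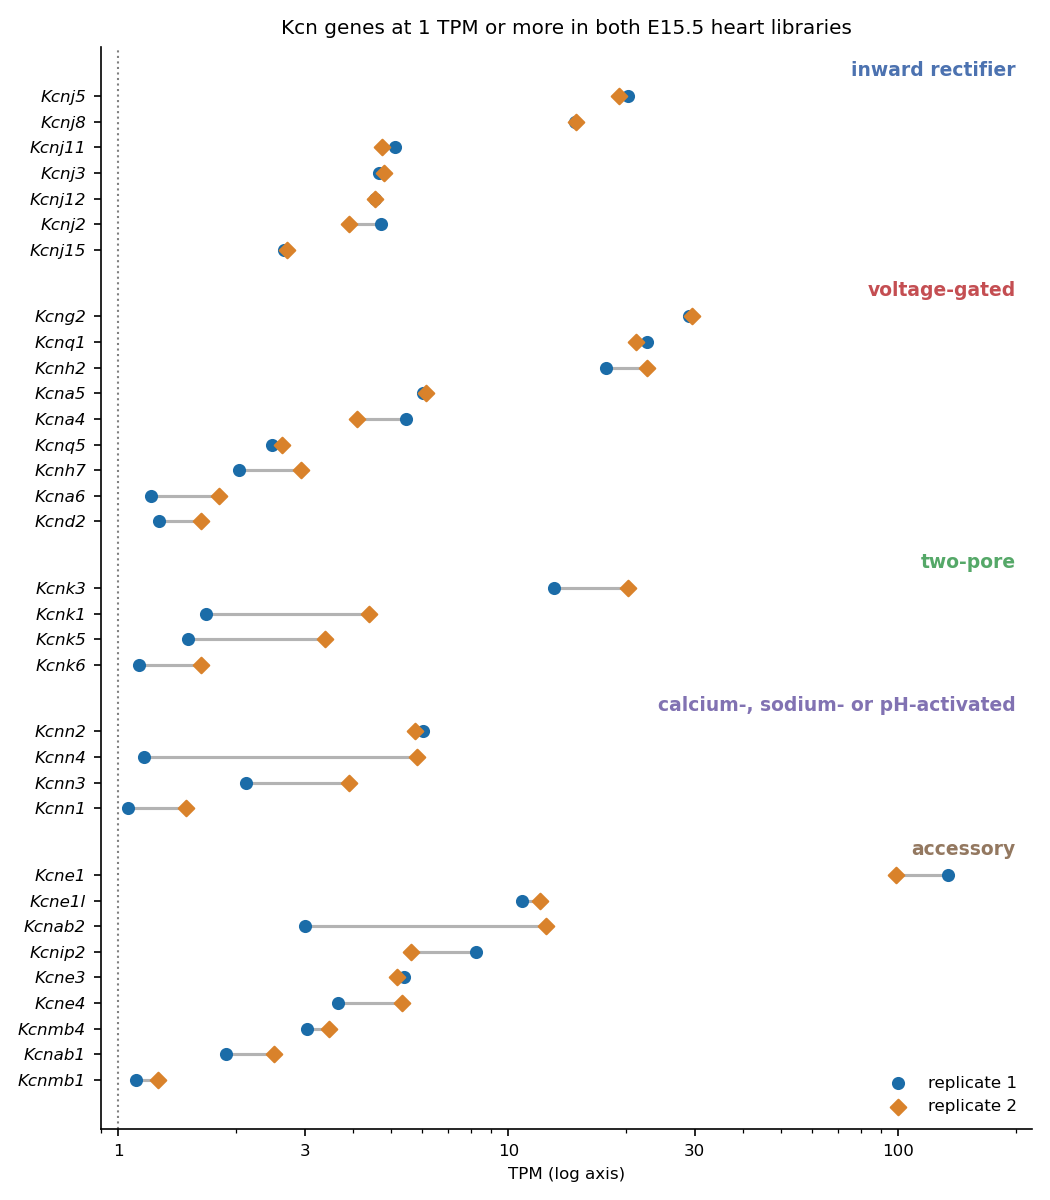
TPM (log axis) of the 33 Kcn genes at 1 TPM or more in both libraries, grouped by subfamily, with a circle for replicate 1, a diamond for replicate 2 and a grey line joining them. Kcne1 stood at 134 and 98.6 TPM, above every other member, and the widest gaps between the libraries were those of Kcnn4 and Kcnab2.

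The accessory genes held the largest part of the Kcn transcripts by TPM, and 1 gene, Kcne1, made up most of that part. Summed TPM of accessory genes was 174.5 in replicate 1 and 152.2 in replicate 2, a share of the Kcn total of 45.6 ± 5.0% (SD, n = 2). Voltage-gated pore subunits summed to 93.5 and 103.3 TPM, inward rectifiers to 57.8 and 56.0 TPM, two-pore subunits to 18.5 and 32.1 TPM, and the subunits opened by calcium, sodium or pH to 11.1 and 18.5 TPM. The ranges of the 5 sums over both libraries did not overlap, although the lower two-pore sum and the higher sum of the last group both rounded to 18.5 TPM. In reads without length normalization accessory genes came second, with 26.1% against 35.5% for voltage-gated genes. Without Kcne1 the accessory share of TPM was 19.3%, behind the voltage-gated share of 40.7% and the inward rectifier share of 23.7%. In the number of detected genes, accessory genes had 9 of 17, the calcium-, sodium- or pH-activated group 4 of 8, inward rectifiers 7 of 15, two-pore genes 4 of 14 and voltage-gated genes 9 of 40. All pore-forming genes together summed to 180.9 TPM in replicate 1 and 209.9 TPM in replicate 2.

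**Figure D2:**
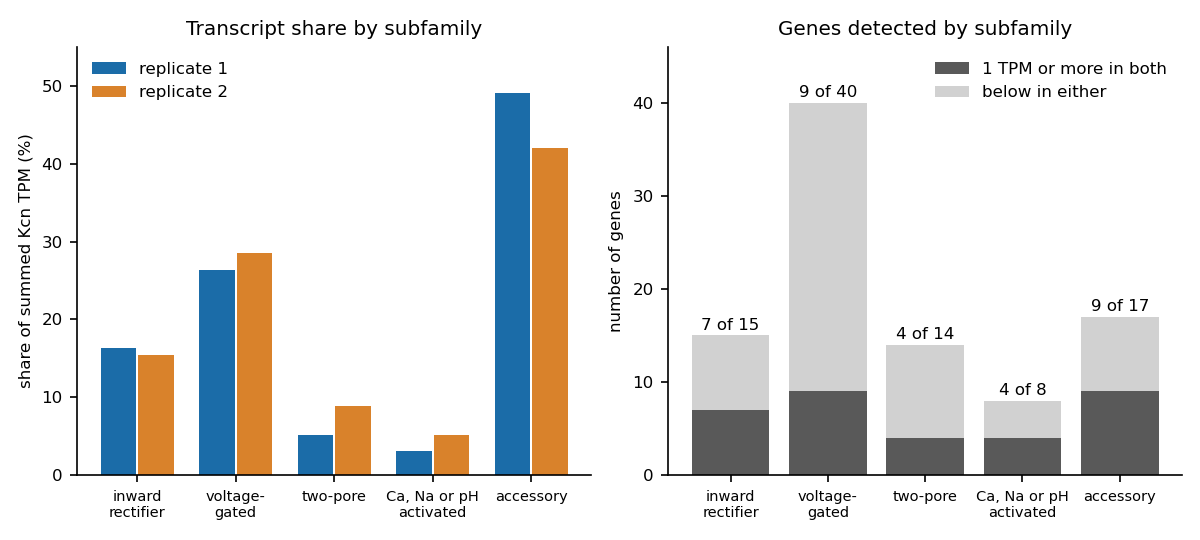
Left, share of the summed Kcn TPM (%) held by each subfamily in replicate 1 (blue) and replicate 2 (orange). Right, number of genes per subfamily at 1 TPM or more in both libraries (dark) and below that in either (light). Accessory genes had the highest share in both libraries with 9 detected genes, and voltage-gated genes had the most members, with 9 of 40 detected.

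Kcnj5 and Kcnj8 led the inward rectifiers. Kcnj5, a subunit of the channel that acetylcholine opens in atrial and nodal muscle, had 20.3 TPM in replicate 1 and 19.2 TPM in replicate 2 (chromosome 9, 32314707 to 32344350, mm10). Its partner Kcnj3 had 4.65 and 4.79 TPM, and the log2 ratio of Kcnj3 over Kcnj5 was -2.10 and -1.98 in the libraries (mean -2.04 ± 0.09, SD, n = 2). Both genes varied little between pools, and their ranges were far apart. Exons of Kcnj3 overlap the lincRNA gene Gm26794 on the opposite strand over 31.1% of their length, and that gene had 0.08 and 0.24 TPM. Upstream of this channel, the muscarinic receptor gene Chrm2 had 12.1 and 11.8 TPM and the adenosine receptor gene Adora1 16.9 and 15.2 TPM. Of the G protein regulators, Rgs6 had 8.99 and 8.11 TPM, while Rgs4 had 3.8 TPM in replicate 1 and 10.6 TPM in replicate 2. Kcnj5 neighbours Kcnj1, a kidney channel gene, at a distance of 28.1 kb, and Kcnj1 had 0.00 and 0.06 TPM.

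The ATP-sensitive channels, which open when cellular ATP falls, combine a Kcnj8 or Kcnj11 pore with a sulfonylurea receptor encoded by Abcc9 or Abcc8. Kcnj8 had 14.8 TPM in replicate 1 and 14.9 TPM in replicate 2, and Kcnj11 had 5.13 and 4.75 TPM. The ratio of Kcnj8 to Kcnj11 was 2.89 and 3.13 (mean log2 ratio 1.57 ± 0.08, but 2.52 without length normalization). Abcc9 had 11.2 and 11.98 TPM, and Abcc8 had 6.86 and 7.75 TPM, a ratio of 1.63 and 1.55 (mean log2 ratio 0.66 ± 0.05). For both the pore and the receptor the first gene was above the second in each library. The genes sit in 2 pairs, Kcnj8 16.3 kb from Abcc9 on chromosome 6 and Kcnj11 3.76 kb from Abcc8 on chromosome 7. The only Kcnj11 model in the files spans 1173 bases, and its level rests on 179 and 148 counts. The longest complete coding sequence of Kcnj11 in GENCODE M21 has 1170 bases.

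The classical inward rectifier current that holds the resting potential is carried by channels of Kcnj2, Kcnj12 and Kcnj4. Kcnj2 had 4.71 TPM in replicate 1 and 3.91 TPM in replicate 2, and Kcnj12 had 4.54 and 4.55 TPM, so that their ranges overlapped and their order differed between pools. Kcnj4 had 0.29 and 0.17 TPM, on 19 and 10 counts. The mean log2 ratio of Kcnj2 over Kcnj4 was 3.76 ± 0.19, but 2.11 with a pseudocount of 1 TPM and 5.31 without length normalization. Kcnj14, which codes for another member of this group, had 0.37 and 0.31 TPM. Kcnj15, known mainly from kidney, completed the detected inward rectifiers with 2.66 and 2.71 TPM. The other undetected members were Kcnj1, Kcnj6, Kcnj9, Kcnj10, Kcnj13 and Kcnj16, of which Kcnj13 was highest with 0.29 and 0.51 TPM and Kcnj9 lowest with 0.00 and 0.01 TPM. Exons of Kcnj13 lie to 49.1% of their length inside those of Gigyf2 on the opposite strand, so its low level is uncertain. Hcn4, the pacemaker channel gene of the sinus node, stood at 1.31 and 1.25 TPM, and its mean log2 ratio over Kcnj2 was -1.67 ± 0.14.

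Among voltage-gated pore subunits, 3 genes stood above 10 TPM in both libraries, namely Kcng2, Kcnq1 and Kcnh2. Kcng2 codes for an electrically silent subunit, which gives no current by itself and modifies Kcnb channels. It had 29.0 TPM in replicate 1 and 29.6 TPM in replicate 2, the second highest level of all 94 genes, on 2109 and 1893 counts. Kcnb2, whose product it is known to join, was below detection with 0.42 and 0.66 TPM. Kcng2 shares 9.10% of its exon bases with an unclassified gene on the opposite strand, D330025C20Rik, which had 3.66 and 4.11 TPM. Its sister genes Kcng1, Kcng3 and Kcng4 were not detected, the highest being Kcng1 with 0.15 and 0.39 TPM. A transcript of 279 bases gave 5.05 and 5.83 TPM of the Kcng2 level on 29.5 and 30.4 counts. The main transcript alone, at 23.5 and 23.6 TPM, was still above Kcnq1 in each library.

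Kcnq1 is the pore of the slow delayed rectifier and Kcne1 its accessory subunit. Kcnq1 had 22.7 TPM in replicate 1 and 21.2 TPM in replicate 2 (chromosome 7, 143106362 to 143427042, mm10). Kcne1 had 134 and 98.6 TPM (116 ± 25.0, SD, n = 2; chromosome 16, 92345982 to 92359468), at rank 1072 of 21474 protein-coding genes by mean TPM. Kcnq1 was the lower of the pair in each library, with a ratio of 0.170 and 0.215 and a mean log2 ratio of -2.38 ± 0.24. Without length normalization the mean log2 ratio was -0.95, and per longest transcript Kcnq1 had 21.5 and 20.5 TPM, against 43.1 and 35.3 TPM for Kcne1. Kcnh2, the pore of the rapid delayed rectifier, had 17.8 and 22.6 TPM, and its range overlapped that of Kcnq1. Kcne2, which has been described as a partner of Kcnh2, had 0.84 and 0.54 TPM, although it lies 47.9 kb from Kcne1 on chromosome 16. The mean log2 ratio of Kcnh2 over Kcne2 was 4.70 ± 0.64, but 3.64 with a pseudocount of 1 TPM and 5.72 without length normalization. The anchoring protein gene Akap9, whose product tethers Kcnq1 channels, had 82.5 and 66.7 TPM.

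The transient outward and ultrarapid currents of the adult mouse heart use Kcnd, Kcna4, Kcna5 and the Kcnd partner Kcnip2. Kcna5 had 6.04 TPM in replicate 1 and 6.15 TPM in replicate 2, and Kcna4 had 5.45 and 4.09 TPM. Kcna5 was above Kcna4 in each library by a mean log2 ratio of 0.36 ± 0.30, while in reads without length normalization the order was turned, at -0.28. Kcnd2 had 1.27 and 1.63 TPM, Kcnd3 had 0.37 and 0.60 TPM, and Kcnd1 had 0.57 and 0.85 TPM. Kcnip2 had 8.26 and 5.62 TPM and stood above Kcnd3 by a mean log2 ratio of 3.59 ± 0.79. The posterior mean TPM of Kcnd3, a second estimate in the files, was 0.84 and 0.97, and with it the ratio was 2.92, while it was 2.36 without length normalization and 2.40 with a pseudocount of 1 TPM. The Dpp6 and Dpp10 genes, which code for the other known Kcnd partners, had 0.39 and 0.39 TPM and 0.06 and 0.11 TPM. Kcnip2 was above all 3 Kcnd pore genes in each library, and of these only Kcnd2 was detected.

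Kcnq5, Kcnh7 and Kcna6, known mainly from neurons, were the remaining detected voltage-gated genes. Kcnq5 had 2.47 and 2.62 TPM, Kcnh7 had 2.04 and 2.93 TPM, and Kcna6 had 1.21 and 1.81 TPM. Exons of Kcna6 overlap an antisense gene over 39.6% of their length and those of Kcnh7 overlap Gca over 4.57%, and Gca had 13.5 and 11.7 TPM. Nothing in the labels or headers says that strand was used in counting, so these values are uncertain. In all, 15 detected Kcn genes share exon bases with another gene, 14 of them with one on the opposite strand. The 31 voltage-gated genes below detection included every Kcnc, Kcnf, Kcns and Kcnv gene. Kcna10 and Kcns2 had 0 counts in both libraries. A count of 0 allows up to 3 counts, which is 0.0892 and 0.0999 TPM for Kcna10 and 0.0217 and 0.0243 TPM for Kcns2.

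Kcnk3, an acid-sensitive leak channel, led the two-pore genes with 13.1 TPM in replicate 1 and 20.3 TPM in replicate 2 (chromosome 5, 30588170 to 30625271, mm10). It made up 70.7% and 63.2% of all two-pore TPM. Kcnk1, a leak channel of low activity, had 1.68 and 4.40 TPM. Kcnk5, an alkaline-activated channel, had 1.51 and 3.39 TPM, and Kcnk6 had 1.13 and 1.63 TPM. The ranges of Kcnk5 and Kcnk6 overlapped. The stretch-activated channel gene Kcnk2, a second leak channel known from heart muscle, had 0.30 and 0.88 TPM, and its posterior mean TPM was 0.80 and 1.47. Kcnk3 stood above it by a mean log2 ratio of 4.71 ± 0.47, which was 3.76 with posterior mean TPM and 3.47 with a pseudocount of 1 TPM. All 4 detected two-pore genes had the higher TPM in replicate 2. The other 9 genes below detection were Kcnk13, Kcnk10, Kcnk16, Kcnk7, Kcnk4, Kcnk12, Kcnk15, Kcnk9 and Kcnk18, the last being lowest with 0.00 and 0.01 TPM.

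All 4 Kcnn genes were detected and no other gene of the calcium-, sodium- or pH-activated group was. The small-conductance channels Kcnn2, Kcnn3 and Kcnn1, known from atrial muscle and neurons, had 6.02 and 5.76 TPM, 2.12 and 3.89 TPM, and 1.06 and 1.49 TPM. Kcnn2 was above Kcnn3 in each library, with a mean log2 ratio of Kcnn3 over Kcnn2 of -1.01 ± 0.64. Kcnn4, the intermediate-conductance channel of blood cells and endothelium, had 1.16 TPM in replicate 1 and 5.81 TPM in replicate 2. The large-conductance channel gene Kcnma1 had 0.19 and 0.33 TPM. Its smooth muscle subunit Kcnmb1 had 1.11 and 1.26 TPM, above the pore gene in each library (mean log2 ratio of Kcnma1 over Kcnmb1 -1.86 ± 0.28). That ratio was -0.80 with a pseudocount of 1 TPM and -2.18 without length normalization. Kcnt2 had 0.47 and 0.58 TPM, Kcnt1 had 0.00 and 0.54 TPM, and the sperm channel gene Kcnu1 was lowest with 0.12 and 0.08 TPM.

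Besides Kcne1, the single-span Kcne1l, also known as Kcne5, had 10.8 TPM in replicate 1 and 12.1 TPM in replicate 2. Kcne3 had 5.41 and 5.18 TPM and Kcne4 had 3.65 and 5.34 TPM, so that 4 of 5 Kcne genes were detected. Of the cytoplasmic beta subunits of Kcna channels, Kcnab2 had 3.01 and 12.5 TPM and Kcnab1 had 1.89 and 2.50 TPM. The mean log2 ratio of Kcnab1 over Kcnab2 was -1.46 ± 1.16, at -0.64 in replicate 1 and -2.28 in replicate 2. Kcnmb4, a subunit of the large-conductance channel known from brain, had 3.04 and 3.46 TPM. Its exons overlap those of the antisense gene Kcnmb4os2 over 20.9% of their length. The undetected accessory genes were Kcnip3, Kcnab3, Kcne2, Kcnip4, Kcnrg, Kcnip1, Kcnmb2 and Kcnmb3, with Kcnmb3 lowest at 0.02 and 0.00 TPM.

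In the order of mean TPM over the 33 detected genes, Kcne1 stood apart from Kcng2, and Kcng2 from Kcnq1. Kcnq1, Kcnh2, Kcnj5, Kcnk3 and Kcnj8 followed, and each overlapped its neighbour in the order over the 2 libraries. Kcnj8 stood apart from Kcne1l. Further down, ranges did not overlap between Kcna5 and Kcnn2, Kcnn2 and Kcne3, Kcne3 and Kcnj11, Kcnj3 and Kcnj12, Kcnj15 and Kcnq5, and Kcnab1 and Kcna6, and all other neighbours overlapped. Just below the threshold of 1 TPM in both libraries lay Kcnip3 with 0.71 and 1.89 TPM, Kcnab3 with 0.63 and 0.91 TPM, Kcna3 with 0.61 and 2.03 TPM and Kcnd1. Just above it lay Kcnn1, Kcnmb1, Kcnk6 and Kcnn4.

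**Figure D3:**
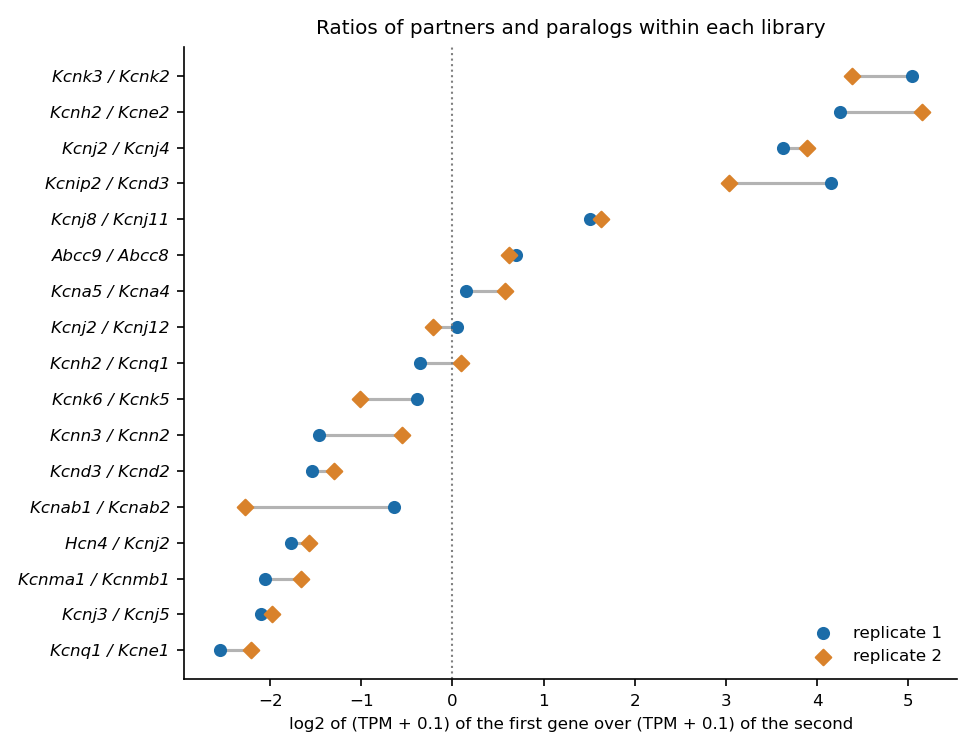
Log2 ratio of (TPM + 0.1) of the first gene over (TPM + 0.1) of the second for 17 pairs of partners or paralogs, with a circle for replicate 1 and a diamond for replicate 2. The ranges of the genes were apart in 14 pairs, 7 with the first gene higher and 7 with the second, and overlapped for Kcnj2 and Kcnj12, Kcnh2 and Kcnq1, and Kcnk6 and Kcnk5.

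Coding sequences of paralogs were aligned, since reads that fit both copies would be shared between them. In 9 aligned pairs the identity of coding bases ran from 73.5% for Kcnj3 and Kcnj5 to 78.9% for Kcnab1 and Kcnab2, with no identical run above 26 bases. Kcnj2 and Kcnj12 were 75.7% identical and Kcnj8 and Kcnj11 77.2%. With 1 group of 2 pools, an exact sign-flip test over the libraries cannot go below p = 0.5, so no p is given and differences are read from the ranges over both libraries.

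Transcripts annotated as protein-coding held 90% or more of the TPM in both libraries for 23 of the 33 detected genes, and 13 genes had a single transcript in the files. It was below 90% in either library for the other 10, namely Kcnh2, Kcnab2, Kcnn2, Kcna4, Kcnmb4, Kcnn3, Kcnq5, Kcnh7, Kcnab1 and Kcna6. In counts the coding share was above 90% in both libraries for Kcnh2 (96.8% and 94.4%), Kcnab2, Kcna4, Kcnq5 and Kcnh7. It stayed below 90% in either library for Kcnn2, Kcnmb4, Kcnn3, Kcnab1 and Kcna6. The coding share of TPM was below 50% in both libraries for Kcnab1, at 36.5% and 29.2%, and for Kcna6, at 32.2% and 0.00%. The level of Kcne1 depended on how its reads were split. Its transcript Kcne1-202, of 601 bases, held 81.2% of the gene's TPM in replicate 1 and 76.8% in replicate 2 but only 41.5% and 35.3% of its counts. The 3155-base transcript Kcne1-201 held 2502 and 2025 counts at 25.2 and 22.9 TPM. Dividing all Kcne1 reads by the longer transcript gave 43.1 and 35.3 TPM, which was still the highest of the 94 genes when each was treated in that way. The accessory share of the Kcn total was then 31.3%, against 32.5% for voltage-gated genes.

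**Figure D4:**
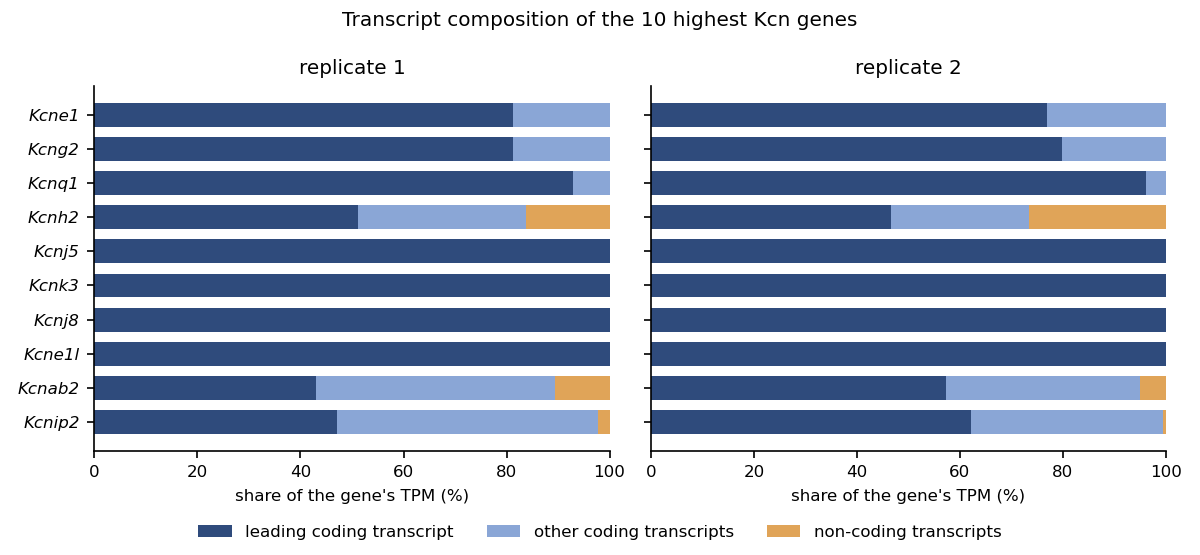
Share of each gene's TPM (%) in its leading coding transcript (dark blue), other coding transcripts (light blue) and non-coding transcripts (orange) for the 10 Kcn genes with the highest mean TPM, with replicate 1 on the left and replicate 2 on the right. Kcnj5, Kcnk3, Kcnj8 and Kcne1l have 1 transcript in the files, and Kcnh2 has the largest non-coding part.

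Kcnh2 had 2 coding transcripts with different starts. Kcnh2-201 held 51.1% of its TPM in replicate 1 and 46.7% in replicate 2, and Kcnh2-202, which starts 22.01 kb downstream, held 32.6% and 26.7%. In TPM, Kcnh2-201 stood at 9.08 and 10.6 and Kcnh2-202 at 5.78 and 6.05, so the longer form was higher in each library. The coding sequences of 1162 and 820 codons share their last 2354 bases and have 1132 and 106 coding bases of their own at the start. The shorter form is known to lack the N-terminal PAS domain, which slows closing of the channel. The join is printed to show where the forms part, with the last 30 bases of each form's own start in capitals and the first 30 shared bases in lower case.
Kcnh2-201: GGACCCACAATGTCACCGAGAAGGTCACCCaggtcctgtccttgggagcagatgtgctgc
Kcnh2-202: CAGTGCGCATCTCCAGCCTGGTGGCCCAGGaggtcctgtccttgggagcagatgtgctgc

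Genes that code for partners of these channels were also looked up. Of 24 listed partner genes, 15 were detected, a share near the 58.2% of all protein-coding genes. Cav3, a caveolar protein of muscle, had 91.1 TPM in replicate 1 and 83.8 TPM in replicate 2, and the ubiquitin ligase gene Nedd4l had 13.5 and 14.2 TPM. The undetected ones included Dpp6, Dpp10, Hcn2, Hcn3, Lrrc26, Lrrc38, Lrrc52 and Lrrc55, the Lrrc genes coding for partners of Kcnma1. By the same threshold 11 of 26 Cacn genes (calcium channels, leader Cacna1c at 53.9 and 42.5 TPM) and 4 of 14 Scn genes (sodium channels) were detected, 42.3% and 28.6%, which like the 35.1% of Kcn genes lie below the 58.2% of all protein-coding genes. The Kcn sum of 355.4 and 362.1 TPM compared with 123.9 and 115.0 TPM for Cacn genes and 14.1 and 23.6 TPM for Scn genes.

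Several neighbouring Kcn genes on a chromosome had unequal levels, which were not compared with those of other gene pairs. Besides the pairs above, Kcnj2 with 4.71 and 3.91 TPM lies 38.2 kb from Kcnj16 with 0.01 and 0.02 TPM on chromosome 11. In the Kcna cluster of chromosome 6, Kcna5 and Kcna6 were detected and Kcna1, between them, had 0.06 and 0.14 TPM. In the cluster of chromosome 3, Kcna3 had 0.61 and 2.03 TPM, Kcna2 had 0.01 and 0.03 TPM and Kcna10 had no count. Kcnk5 lies 79.6 kb from Kcnk16, which had 0.08 and 0.31 TPM. Kcnj9 and Kcnj10, 11.9 kb apart on chromosome 1, were both undetected, at 0.00 and 0.01 TPM and at 0.02 and 0.05 TPM.

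The 2 libraries differed by more than 2-fold in some Kcn genes, and those with enough counts to be tested were lower in replicate 1 under TMM scaling. Ratios are of counts in replicate 1 over replicate 2 after TMM scaling, a factor set by the bulk of genes. Of the 94 genes, 62 had 10 counts or more in both libraries and 32 were not tested, among them Kcnip1 with 2 and 32 counts and, on the other side, Kcnk7 with 10 and 1 and Kcnu1 with 7 and 3. More than 2-fold higher in replicate 1 were 0 of the 62, against 0.851% of 17029 genes, and more than 2-fold lower were 11, against 6.05% of those genes. Besides the 5 genes named next, these were Kcnq3, Kcnk2, Kcnh3, Kcnk10, Kcna1 and Kcnip4. With 100 counts or more in the higher library, 0 of 36 Kcn genes were more than 2-fold higher, against 0.299% of 13393 genes, and 5 were lower, against 4.28%. The median log2 ratio was -0.19 for the 62 Kcn genes, against -0.00 for all genes tested, and 0.05 for the 36, against 0.01. The median size of the log2 ratio, in either direction, was 0.43 for the 62, against 0.22 for all genes tested. These figures for all genes are not matched for level, and the median ratio was lower in genes of low level. All tested genes around a log2 mean TPM of -1.07 had a median log2 ratio of -0.20 and a 5th percentile of -1.62. Those around 8.25 had 0.27 and -0.11. Whether Kcn genes differ from other genes of their level was not tested. Scaling by the spike-ins sets the offset between the libraries to -0.99 in place of -0.05 on the log2 scale, which raises the ratio of every gene alike. Of the 62 Kcn genes, 22 were then more than 2-fold higher in replicate 1 and 1 was lower. The share of all genes was not computed under this scaling, so these counts show nothing particular to Kcn genes.

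The 5 genes were Kcnn4 (log2 ratio -2.11, 95% counting interval -2.49 to -1.74), Kcnab2 (-1.91), Kcna3 (-1.52), Kcnip3 (-1.27) and Kcnk1 (-1.17). Kcnn4 and Kcna3 are channels of lymphocytes, where they sustain calcium entry, and Kcnip3 is a calcium-binding partner of Kcnd channels in neurons. Under spike-in scaling these ratios were -1.17, -0.97, -0.58, -0.34 and -0.24, and the counting intervals of Kcnip3 (-0.84 to 0.14) and Kcnk1 (-0.56 to 0.08) then included 0. Kcnk3, among the leading genes, had a log2 ratio of -0.42 (-0.51 to -0.32), and Kcnh2 one of 0.01 (-0.08 to 0.10). On the other side, Kcnip2 had 0.70 (0.49 to 0.91) and Kcne1 0.50 (0.44 to 0.57). The intervals cover counting error only, and each library is a single pool.

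**Figure D5:**
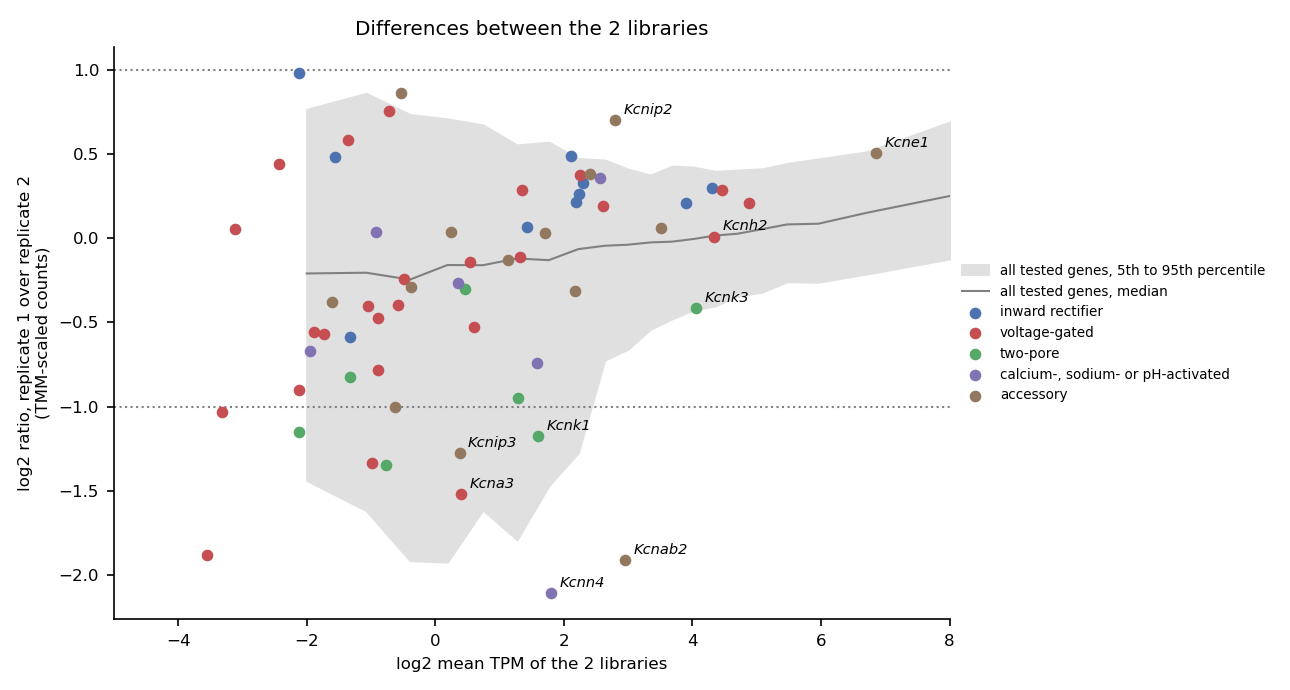
Log2 ratio of TMM-scaled counts, replicate 1 over replicate 2, against log2 mean TPM for the 62 Kcn genes with 10 counts or more in both libraries, coloured by subfamily. The grey band spans the 5th to 95th percentile of all tested genes and the line is their median. Dotted lines mark 2-fold, and Kcnn4 at -2.11 and Kcnab2 at -1.91 lie lowest among the named genes.

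Markers of other cell types also differed between the pools. Thymocyte markers summed to 12.4 TPM in replicate 1 and 123.5 TPM in replicate 2, and 7 of 7 were more than 2-fold lower in replicate 1. Markers of neurons, glia and neural crest summed to 13.9 and 64.4 TPM, with 6 of 8 more than 2-fold lower in replicate 1 (5 of 8 under spike-in scaling). Liver markers summed to 12.8 and 98.3 TPM, with 4 of 4 more than 2-fold lower. Lung epithelium markers summed to 128.6 and 325.4 TPM, with 4 of 4 more than 2-fold lower (2 of 4 under spike-in scaling). These 4 lists mark tissues other than heart muscle, and each sum was lower in replicate 1. Skeletal muscle markers summed to 156.7 and 152.5 TPM, but Acta1 alone had 151.8 and 146.8 TPM of this. Of these markers 2 of 4, Acta1 and Tnnt3, were higher in replicate 1. The others, Myod1 with 0.09 and 0.26 TPM and Myog with 0.82 and 1.63 TPM, were lower. Only Myod1 was more than 2-fold lower, on 5 and 13 counts. Macrophage and leukocyte markers summed to 89.2 and 148.7 TPM, with 1 of 4 more than 2-fold lower. Cardiomyocyte markers were at 14889 and 12413 TPM, and 6 of 6 were higher in replicate 1 after TMM scaling (5 of 6 when scaled by total counts). Of the 36 Kcn genes with 100 counts or more in the higher library, 21 were above 0 after TMM scaling, against 51.4% of all such genes. The number was 16 when scaled by total counts and 30 under spike-in scaling. For these last scalings the share of all genes was not computed, so they cannot be set against 51.4%. The lists of 4 other cell types were closer in their sums, with fibroblast markers at 1918 and 2437 TPM, endothelial markers at 287.1 and 338.1 TPM, smooth muscle markers at 1201 and 1267 TPM, and erythroid markers at 346.8 and 401.3 TPM, although 1 smooth muscle marker, Myh11 (log2 ratio -1.26), and 1 erythroid marker, Klf1 (-1.95), were more than 2-fold lower in replicate 1. Epicardial markers summed to 105.5 and 271.9 TPM, where Krt18 alone had 28.1 and 180.3 TPM. No listed marker was at 0 counts in either library. The part of these cell types in the differences of Kcn genes was not tested.

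The files gave 41221435 and 38457396 counts on Ensembl genes in replicates 1 and 2, of which 25061 and 25184 were on Kcn genes. A single read on a transcript of 1 kb effective length was worth 0.0308 and 0.0345 TPM. Heart muscle markers stood high in both libraries, with Tnnt2 at 7677 and 6085 TPM.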

How the data were processed

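RNA-seq of 2 pools of embryonic mouse hearts was analysed from the gene and transcript tables. Per the file headers, reads were aligned to the transcriptome of mm10 (GENCODE M4) and the authors estimated gene and transcript levels from that. The software behind both steps was not given in the sources used here. Expected counts, as deposited, are estimated read numbers without normalization. The deposited TPM divide them by effective length and scale each library to the same total, spike-ins included, and a deposited posterior mean TPM stands beside them. The authors' deposited percent gives each transcript's share of its gene.

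Symbols and positions came from GENCODE M21 by identifier (42462 of 43346 Ensembl genes matched). The members and gene lists were chosen with earlier results of these data known. The text names every detected gene, the lowest of each subfamily, genes at 0 counts, pair members and genes past 2-fold with 100 counts or more in the higher library; other genes named were chosen after their values were seen. Pair ratios used a pseudocount of 0.1 TPM. Library ratios used TMM (edgeR 4.0.16, R 4.3.3; counts rounded to whole numbers), with DESeq2 1.42.0 size factors, totals and spike-ins as alternatives. The ratio was tested on simulated data with as many genes raised as lowered. In these libraries more genes were 2-fold lower than higher in replicate 1, and the simulation does not cover that imbalance. Intervals are exact at 95%, for counting error only, since no molecular identifiers mark PCR copies. Nothing says that the pools share no litter, so the spread may be technical in part. Total counts, all features included, were 41883313 and 39697992. Proteins were not compared here, and some genes that the naming rule takes are left out of the text.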

Additional observations from a re-analysis of the deposited data

How the results depend on the processing

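The accessory share of the Kcn total, 45.6%, was 26.1% in reads without length normalization, 31.3% in reads per length of the longest transcript and 19.3% without Kcne1, the last 2 chosen after seeing the data; it ranged from 42.0% to 49.1% when either replicate was left out. The number of detected genes ranged from 24 to 40 over the alternatives and from 33 to 35 when either replicate was left out. Of the 10 highest genes, 10 were kept with posterior mean TPM and with coding transcripts alone, 8 without length normalization and 9 per longest transcript. The 11 genes more than 2-fold apart between the libraries became 23 with spike-in scaling, 24 without a count filter, 4 at 50 counts and 21 at 1.5-fold. The shares of all genes at these settings were not computed, and the cause was not tested. Of 85 alternative values of pair ratios, those that leave out a library aside, 56 moved by less than 1 SD, 28 by more, and that of Kcna5 over Kcna4 turned to -0.28 without length normalization. With posterior mean TPM that of Kcnd3 over Kcnd2 was -0.60 in place of -1.42. No paired analysis was possible because there is only 1 group. Depth limits genes with few counts, such as Kcnj4 and Kcnma1.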

Other observations

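The files also hold 5 non-coding genes whose symbols start with Kcn and which entered no sum above. Kcnq1ot1, the antisense RNA of the imprinted Kcnq1 domain, had 1.84 TPM in replicate 1 and 2.11 TPM in replicate 2, on 5029 and 5165 counts, more reads than any protein-coding Kcn gene. Its exons share 2.96% of the Kcnq1 exon bases. Kcnmb4os2 had 0.43 and 0.50 TPM, Kcnmb4os1 had 0.21 and 0.27 TPM, Kcnab3os had 0.07 and 0.07 TPM, and Kcnd3os had 0 counts in both libraries.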
